A study of Mus musculus with 47 samples.

Results

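The genes described here are 10 core components of the circadian clock: the activators Arntl (also called Bmal1), Clock and Npas2, the repressors Per1, Per2, Per3, Cry1 and Cry2, the nuclear receptor Nr1d1 (also called Rev-erb alpha) and the output transcription factor Dbp. They were picked by symbol among the 23416 genes counted in every library, and all 10 were found. The question asked of them was whether the livers, collected in a study of paternal inheritance, differed in clock phase between groups or between replicates.

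In nearly every mammalian cell, ARNTL pairs with CLOCK or NPAS2 and switches on genes that carry E-box sequences, among them the Per and Cry genes. The PER and CRY proteins then gather and shut their own activators off, which closes a loop of about a day. In a second loop, NR1D1 represses Arntl and Npas2, so that Nr1d1 RNA is high when Arntl RNA is low. DBP acts on D-box sequences and carries the rhythm to metabolic genes. In mouse liver the loop gives some of the steepest RNA rhythms of any tissue: Nr1d1, Dbp and Per3 rise during the day, the other Per genes follow towards the evening, and Arntl, Npas2 and Cry1 are high from late night to morning. Feeding, glucocorticoids and body temperature also reset the liver clock, and Per1 answers several of these cues within hours.

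Libraries came from 5 groups with 2 biological replicates each. Ctrl-F1 and KO-F1 males were born after injection of testicular sperm into BDF1 oocytes (ICSI), from wild-type or Scml2-KO littermate fathers of the C57BL/6 strain, and are labelled BDF2 in background; liver and swim-up spermatozoa of the cauda epididymis were taken from both. KO-F2 males, labelled BDF3, were born from natural mating of KO-F1 males with C57BL/6 females, and only their spermatozoa were sequenced. Scml2 lies on the X chromosome, so sons of Scml2-KO fathers do not carry the mutant allele and the level of Scml2 itself does not check the group labels: it had 0 counts in all 4 livers and between 0 and 18 in the sperm libraries. All males were 8 to 12 weeks old and lived under 12 h of light and 12 h of dark. The time of day at which tissue was taken is not given in the sources used here.

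Liver libraries held between 11339729 and 14278900 counts, F1 sperm libraries between 1503733 and 2778171 and KO-F2 sperm libraries 8384266 and 11462105. Levels are given as CPM, the usual rate of counts relative to the library total after TMM scaling. At these depths 3 counts, used as the detection limit, correspond to 0.201 to 0.278 CPM in liver, 0.893 to 2.52 CPM in F1 spermatozoa and 0.265 and 0.364 CPM in KO-F2 spermatozoa. The 6 hepatocyte markers checked summed to between 102811 and 126417 CPM in the livers and to at most 1.79 CPM in spermatozoa, and all 6 sperm markers, including the protamine genes, were at 0 counts in every liver. Markers of Kupffer, endothelial, stellate, bile duct and white blood cells together stayed far below the hepatocyte markers, at most 193 CPM for any list, with groups that overlapped. The ribosomal RNA gene Rn45s took 0.636% and 0.706% of the counts in the Ctrl-F1 livers and 1.21% and 1.59% in the KO-F1 livers, and its part in the results below was not tested.

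Sequences of the kinds on which clock factors act can be sought in the reference genome. RefSeq start sites on GRCm38.p6 gave 13 windows for 9 of the 10 genes, each from 250 bases before to 50 bases after a start. Both strands were searched for the E-box CACGTG, the related E′-box CACGTT, the D-box TTATGTAA or TTACGTAA, and the element bound by NR1D1 and the ROR receptors, ANTAGGTCA or ANTGGGTCA. These occur in 7.15%, 4.68%, 1.06% and 1.45% of all 32851 windows of the same length. Stretches with a match are shown 5′ to 3′ on the strand of the gene, with the matched bases in capitals. A match is one of letters only, and binding to it was not tested. The Per1 stretch (chr11:69098763-69098808, plus strand) holds an E-box, the Per3 stretch (chr4:151044796-151044890, minus strand) holds 2 D-boxes, the Cry1 stretch (chr10:85185089-85185153, minus strand) holds an E′-box and an E-box, the Cry2 stretch (chr2:92434210-92434255, minus strand) and the Nr1d1 stretch (chr11:98775380-98775425, minus strand) each hold an E′-box read from the opposite strand, and the Arntl stretch (chr7:113207531-113207555, plus strand), which lies just after the start, holds the NR1D1 and ROR element.
Per1: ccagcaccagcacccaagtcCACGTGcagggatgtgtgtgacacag
Per3: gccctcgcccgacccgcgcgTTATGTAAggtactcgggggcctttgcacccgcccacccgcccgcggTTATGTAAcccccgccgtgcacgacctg
Cry1: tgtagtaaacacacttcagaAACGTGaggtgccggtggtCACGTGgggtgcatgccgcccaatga
Cry2: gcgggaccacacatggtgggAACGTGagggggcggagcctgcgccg
Nr1d1: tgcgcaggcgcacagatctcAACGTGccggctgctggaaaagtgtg
Arntl: aggcagaaAGTAGGTCAgggacgga
The windows of Clock, Npas2 and Dbp held none of these letters, which says nothing of sequences outside them.

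All 4 livers showed the same arrangement of the clock: Arntl and Npas2 RNA were at or near the detection limit, Clock RNA was well above it, and Nr1d1 and Dbp RNA were abundant. Per kilobase of exon, which allows genes to be set side by side, Dbp came first in both groups, at 64.0 and 53.1 CPM per kb in the Ctrl-F1 livers and 81.7 and 68.9 CPM per kb in the KO-F1 livers. Nr1d1 followed at 18.8 and 21.6 against 25.3 and 28.7 CPM per kb, and Cry2 at group means of 8.03 and 7.47 CPM per kb. At the other end, Arntl averaged 0.187 and 0.0910 CPM per kb and Npas2 0.0331 and 0.0208 CPM per kb. Neighbours in the order did not overlap in their replicates, except Per2 with Per3 and Per3 with Cry1 in Ctrl-F1 and Per2 with Per1 and Per1 with Per3 in KO-F1.

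**Figure D1:**
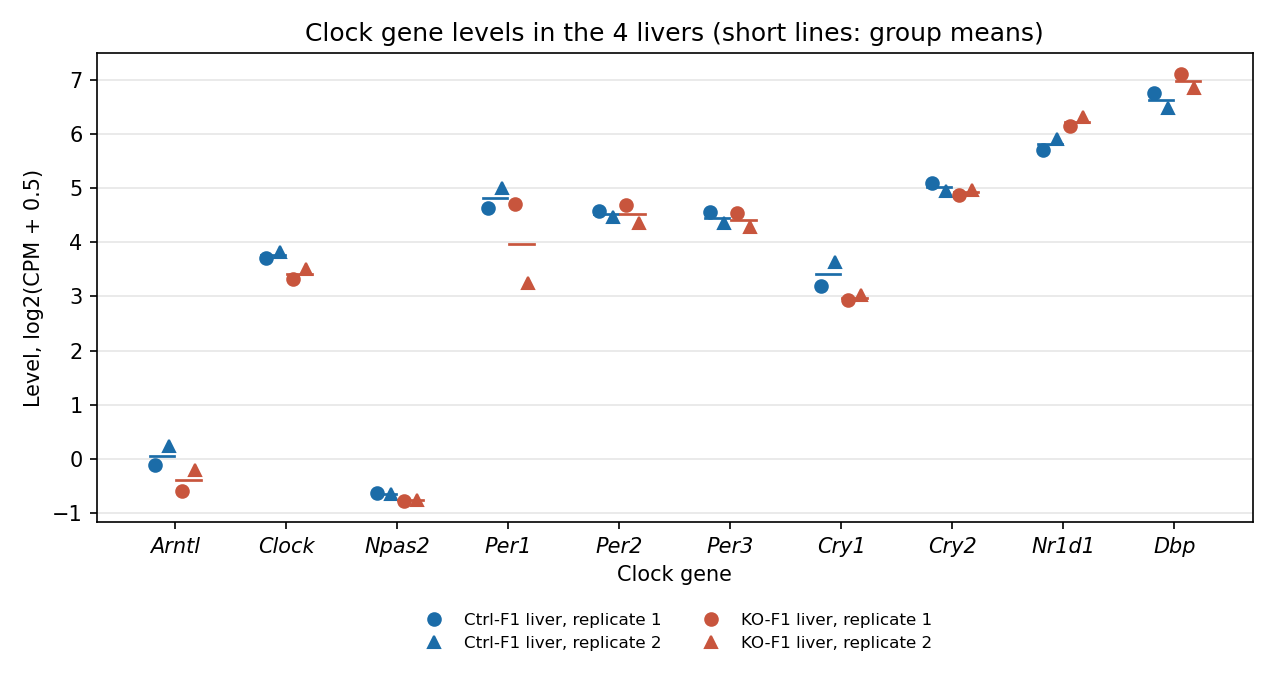
Level of each clock gene in the 4 livers as log2(CPM + 0.5), with circles for replicate 1, triangles for replicate 2, blue for Ctrl-F1, red for KO-F1 and short lines for the mean of the 2 replicates. Arntl and Npas2 sit at the bottom and Nr1d1 and Dbp at the top in every liver, and the widest gap between replicates is that of Per1 in KO-F1.

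Among the activators, Arntl, the obligate partner in the activating complex, had 6 and 10 counts in the Ctrl-F1 livers and 2 and 4 counts in the KO-F1 livers, or 0.426 and 0.672 against 0.163 and 0.370 CPM. The KO-F1 values were lower in both animals, but Arntl did not pass the filter on low counts and was not tested. Npas2, which can take the place of Clock in the complex, had 2 counts in each Ctrl-F1 liver and 1 count in each KO-F1 liver, at or under the detection limit throughout, so no fold is given. Clock, the usual partner of Arntl, had 12.6 and 13.6 CPM in Ctrl-F1 and 9.46 and 10.9 CPM in KO-F1 livers. The Clock values did not overlap, with both KO-F1 livers below both Ctrl-F1 livers.

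Among the repressors, Per1 stood at 24.3 and 31.8 CPM in Ctrl-F1 and at 25.5 and 8.98 CPM in KO-F1 livers, so that only replicate 2 of KO-F1 was low. Per2 stood at 23.4 and 21.6 CPM against 25.4 and 19.9 CPM, and Per3 at 23.0 and 19.9 CPM against 22.8 and 19.1 CPM. For these other two Per genes the groups overlapped and the group means lay close to each other. Cry1, the repressor whose RNA peaks latest, was at 8.67 and 11.9 CPM in Ctrl-F1 and 7.10 and 7.68 CPM in KO-F1 livers, with no overlap. Cry2, its flatter paralog, was at 33.8 and 30.6 CPM against 28.9 and 30.9 CPM, and its groups overlapped.

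Nr1d1 was at 51.9 and 59.8 CPM in Ctrl-F1 and at 70.1 and 79.2 CPM in KO-F1 livers, and Dbp at 107 and 89.2 CPM in Ctrl-F1 and at 137 and 116 CPM in KO-F1 livers. For both genes each KO-F1 liver lay above each Ctrl-F1 liver. Exons of Nr1d1 overlap those of Thra on the opposite strand over 263 bp, or 9.51% of its exon length, and exons of Dbp overlap those of Sphk2 on the opposite strand over 539 bp, or 32.1%. The sources used here do not state whether strand was used in counting. In the 4 livers, in the order above, Thra had 90, 95, 46 and 69 counts and Sphk2 244, 290, 303 and 237 counts.

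No clock gene was called as changed in KO-F1 liver, where a call needed both a change of 2-fold or more and an adjusted p under 0.01. Of the 10 genes, 8 passed the filter and were tested with edgeR's quasi-likelihood test, which called 0 of the 11505 genes tested (0%); DESeq2 called 20 of 7306 genes (0.274%) and none of the clock genes. At an unadjusted p under 0.05, 1 of the 8, Nr1d1, passed, against 9.41% of all genes tested. Nr1d1 was 1.34-fold higher in KO-F1 (log2 fold change 0.42 with a standard error of 0.16, unadjusted p = 0.0309 and adjusted p = 0.509 by edgeR). Dbp was 1.29-fold higher (0.36, standard error 0.17, adjusted p = 0.551). The log2 fold change of Cry1 was -0.48 (standard error 0.26, adjusted p = 0.592) and that of Clock -0.37 (standard error 0.21, adjusted p = 0.602).

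The replicates of the groups were separate for 4 of the 8 tested genes, Nr1d1 and Dbp above and Clock and Cry1 below, and for 41.6% of all genes tested. The intervals bound how far the tested genes may have differed. The 95% interval of the log2 fold change ran from 0.05 to 0.79 for Nr1d1, from -0.03 to 0.75 for Dbp, from -0.42 to 0.44 for Per2, from -0.45 to 0.39 for Per3 and from -0.46 to 0.25 for Cry2, all inside the 2-fold range, and reached past it for Per1, from -1.64 to 0.25, and for Cry1, from -1.08 to 0.12. For a gene on its own, exact permutation of 2 livers against 2 gives a two-sided p of 0.333 at best.

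**Figure D2:**
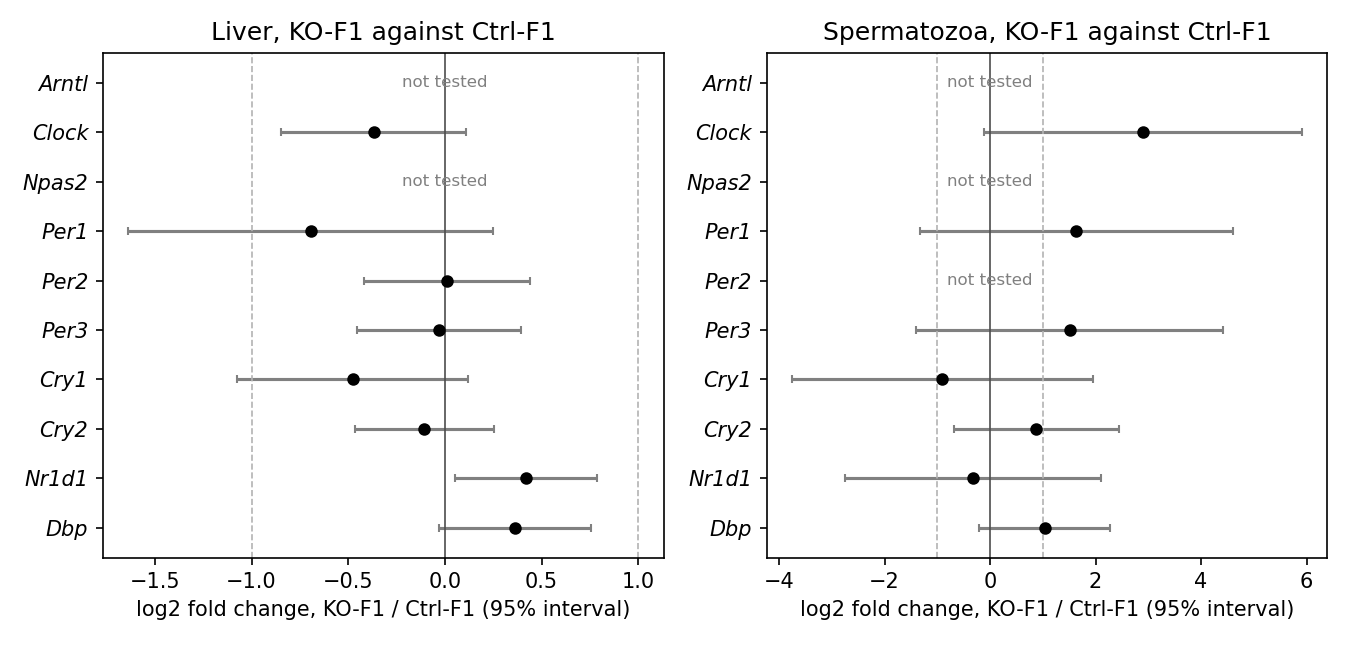
log2 fold change of KO-F1 over Ctrl-F1 for each clock gene in liver (left) and spermatozoa (right), with 95% intervals from the edgeR fit and dashed lines at a 2-fold change; genes that did not pass the filter are marked as not tested. In liver the interval leaves 0 for Nr1d1 alone, and in spermatozoa every interval includes 0.

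Because Arntl and Npas2 run opposite to Nr1d1, Dbp and Per3, the contrast between the 2 sides moves with the phase of the clock. The mean log2(CPM + 0.5) of Arntl and Npas2 minus that of Nr1d1, Dbp and Per3 was -6.05 and -5.80 in the Ctrl-F1 livers and -6.62 and -6.30 in the KO-F1 livers. The group means differed by -0.54, with standard deviations of 0.18 within Ctrl-F1 and 0.22 within KO-F1 (n = 2 each). This difference holds Npas2, which was below 3 counts in every liver, and Arntl at 2 to 10 counts, and it repeats the higher Nr1d1 and Dbp given above, so it is no separate evidence and gets no p-value. Next, Clock and the late-peaking repressor Cry1 were added to Arntl and Npas2, and Per1 and Per2 to Nr1d1, Dbp and Per3. The values were then -3.70 and -3.49 in the Ctrl-F1 livers against -4.22 and -3.61 in the KO-F1 livers, and the groups overlapped. The same contrast made from other clock genes, Nfil3 minus Nr1d2, Tef, Hlf and Ciart, gave -2.35 and -1.82 in the Ctrl-F1 livers against -2.49 and -2.15 in the KO-F1 livers, and again the groups overlapped.

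Pairs of genes within a library show how few reads the values of Arntl rest on. Arntl made up 0.395% and 0.747% of the counts of Arntl and Dbp together in the Ctrl-F1 livers and 0.119% and 0.319% in the KO-F1 livers, with exact 95% binomial intervals from 0.145% to 0.858%, 0.359% to 1.37%, 0.0144% to 0.429% and 0.0870% to 0.815%. The intervals of the last 2 overlap that of Ctrl-F1 replicate 1. Cry1, with more reads, made up 14.3% and 16.6% of the counts of Cry1 and Nr1d1 together in Ctrl-F1 livers, against 9.20% and 8.84% in KO-F1 livers. Its intervals, 12.0% to 16.8% and 14.4% to 19.0% against 7.43% to 11.2% and 7.10% to 10.8%, did not overlap between groups, but this held for 1 of the 12 pairs compared. In the other 11 the intervals of some Ctrl-F1 and KO-F1 livers overlapped, among them Cry1 with Dbp, where Cry1 made up 7.47% (6.24% to 8.85%) in Ctrl-F1 replicate 1 and 6.23% (4.99% to 7.66%) in KO-F1 replicate 2. These intervals cover counting error within a library and not the spread between animals.

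Between replicates the tested clock genes moved about as much as other genes, and Per1 in KO-F1 had the largest ratio among them. In the Ctrl-F1 livers the size of the log2 ratio of replicate 2 to replicate 1 had a median of 0.20 over the 8 tested clock genes, against 0.22 over all genes tested, and none of the 8 passed the 90th percentile of 0.82. The largest ratio among the 8 was that of Cry1, at 0.45. In the KO-F1 livers the median was 0.23 against 0.28, and Per1 alone of the 8 passed the 90th percentile of 0.91. By definition 90% of all genes lie at or under that percentile, so 1 of 8 is near the share above it. The Per1 ratio was larger in size than that of 96.8% of all genes tested. Some smaller ratios also lay beyond counting error. These were Per1, Cry1, Nr1d1 and Dbp in Ctrl-F1, and Per2, Nr1d1 and Dbp beside Per1 in KO-F1. For Dbp the interval ran from -0.38 to -0.16 in Ctrl-F1 and from -0.35 to -0.14 in KO-F1. The intervals of the other tested clock genes included 0. Arntl, not tested, had ratios of 0.61 and 1.03 in the 2 groups, with intervals of counting error from -0.95 to 2.40 and from -1.62 to 4.65.

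Per1 had 313 counts in KO-F1 replicate 1 and 97 in replicate 2, a log2 ratio of -1.50 with an interval of counting error from -1.85 to -1.17, or 2.83-fold higher in replicate 1. In the same pair of livers Per2 had a ratio of -0.35, Per3 of -0.26, Dbp of -0.24, Nr1d1 of 0.18, Clock of 0.21 and Cry1 of 0.11. The Per1 difference between groups rested on this library. Without KO-F1 replicate 2 it was -0.13 on the log2 scale (adjusted p = 0.911 by edgeR), and without KO-F1 replicate 1 it was -1.63 (adjusted p = 0.0217), in fits where the lone KO-F1 liver is assumed to vary like the Ctrl-F1 livers.

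Among the clock outputs tested, 9 of 15 had their lowest value in that liver and 2 their highest, and among the genes of feeding, fasting, glucocorticoids and temperature 10 of 17 had their lowest value there and 2 their highest, against 30.7% and 28.7% of all genes tested. Noct, a gene driven by the clock, had 32.2 and 60.0 CPM in Ctrl-F1 livers and 28.0 and 10.4 CPM in KO-F1 livers. Mfsd2a, which encodes a lipid transporter induced by fasting, had 25.5 and 58.8 CPM against 52.8 and 7.31 CPM. Sgk1, a glucocorticoid-induced kinase gene, had 5.76 and 10.0 CPM against 6.85 and 3.24 CPM, and Hspa1b, a heat shock gene whose reads can be shared with its near-identical copy Hspa1a, had 21.9 and 28.3 CPM against 17.5 and 6.66 CPM. Replicate 2 of KO-F1 was the lowest liver for each of the 4, and replicate 2 of Ctrl-F1 the highest. These 4 were chosen after their values were seen, and other genes of the same lists ran differently. Fkbp5, a glucocorticoid-induced gene like Sgk1, was lowest in Ctrl-F1 replicate 2, at 18.5 CPM against 21.0 CPM in KO-F1 replicate 2, and the outputs Elovl3 and Insig2 and the cold-induced genes Cirbp and Rbm3 were highest in KO-F1 replicate 2. Kupffer cell markers summed to 193 CPM in that liver and to between 97.5 and 151 CPM in the others. The part of these genes and cells in the Per1 value was not tested.

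**Figure D3:**
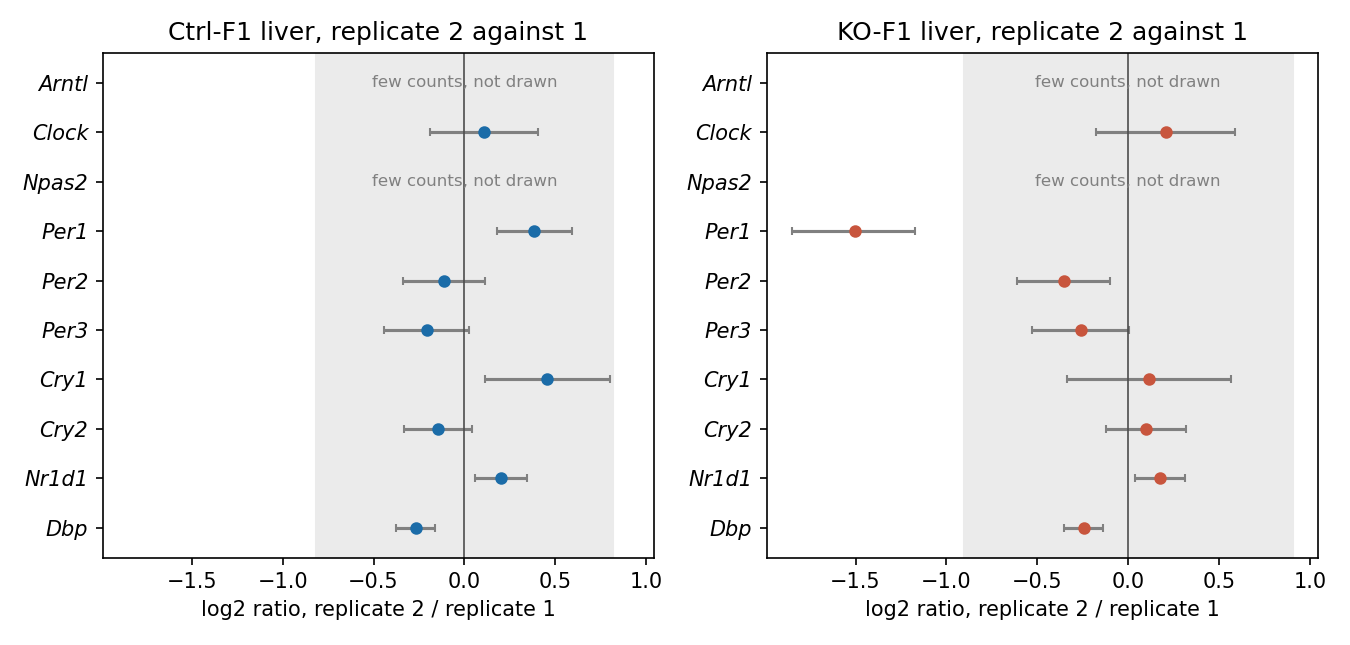
log2 ratio of replicate 2 to replicate 1 for each clock gene in the Ctrl-F1 (left) and KO-F1 (right) livers, with 95% intervals of counting error; the grey band holds 90% of all genes tested. Per1 in KO-F1 lies outside the band at -1.50, and all other drawn genes lie inside it.

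Over the 4 livers together, the range of log2(CPM + 0.5) was 1.77 for Per1 and lay between 0.14 for Npas2 and 0.82 for Arntl for the rest. The median range over all genes tested was 0.53 and the 90th percentile 1.15, so Per1 was the only clock gene above the 90th percentile. This was 1 of the 10 clock genes, about the share of all genes that lie above it by definition. Nr1d1, with a range of 0.60, Dbp, with 0.62, and Cry1, with 0.71, lay between the median and the 90th percentile, as Arntl did, and Per3, with 0.26, and Cry2, with 0.22, lay below the median.

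Other components of the clock gave a similar picture. Of 16 further regulators, 15 were tested, none was called by edgeR or DESeq2 and 1 passed an unadjusted p under 0.05, against 9.41% of all genes. This was Rora, a receptor that competes with NR1D1, at 1.92 and 4.63 CPM in Ctrl-F1 and 1.22 and 0.833 CPM in KO-F1 livers (log2 fold change -1.66, standard error 0.59, adjusted p = 0.501 by edgeR). The median log2 fold change of the list was -0.005, against -0.006 over all genes tested. Nr1d2, the paralog of Nr1d1, was at 77.7 and 85.9 CPM against 87.9 and 68.6 CPM, with overlapping groups, unlike Nr1d1 itself. Tef, a paralog of Dbp, was at 196 and 203 CPM against 183 and 130 CPM, with both KO-F1 livers below, the opposite side from Dbp, and its log2 fold change was -0.35 (standard error 0.19, adjusted p = 0.593). Hlf, the remaining paralog of Dbp, was at 58.3 and 54.3 CPM against 61.8 and 55.3 CPM.

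Of 15 genes whose RNA follows the clock in liver, all 15 were tested, none was called by edgeR or DESeq2 and 2 passed an unadjusted p under 0.05, near the 9.41% of all genes. Lpin1, a regulator of lipid synthesis, had 162 and 112 CPM in Ctrl-F1 and 78.3 and 89.9 CPM in KO-F1 livers (log2 fold change -0.70, standard error 0.20, adjusted p = 0.484 by edgeR). For Noct, given above, the log2 value was -1.26 (standard error 0.44, adjusted p = 0.496). The median of the list was -0.14.

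Of 18 genes that report on feeding, fasting, glucocorticoids or temperature, the cues that set the liver clock, 17 were tested and none was called by edgeR or DESeq2, but 8 passed an unadjusted p under 0.05, all of them lower in KO-F1, against 9.41% of all genes in either direction, and the median log2 fold change was -0.60 against -0.006. Among the glucocorticoid targets Tsc22d3 was at 113 and 119 CPM in Ctrl-F1 and 78.7 and 58.6 CPM in KO-F1 livers (log2 fold change -0.76, standard error 0.18, adjusted p = 0.418 by edgeR). For Tat, which encodes a tyrosine-degrading enzyme, the log2 value was -0.87 (standard error 0.23, adjusted p = 0.452). Among the fasting genes, Pck1, a key enzyme of glucose synthesis, was at -0.60, G6pc, which releases glucose, at -1.27 and Igfbp1 at -1.33, and among the heat shock genes Hsp90aa1 was at -0.73, Hspa8 at -0.60 and Hspa1b at -1.05. Their adjusted p-values by edgeR lay between 0.484 and 0.508. Over the 17 genes tested, both KO-F1 livers lay below both Ctrl-F1 livers for 10 and above them for 1, Cirbp, against 41.6% of all genes with separate groups in either direction. This list was chosen with earlier results of these data known, so its share and median are no independent evidence. The difference between this list and the clock genes was not tested.

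**Figure D4:**
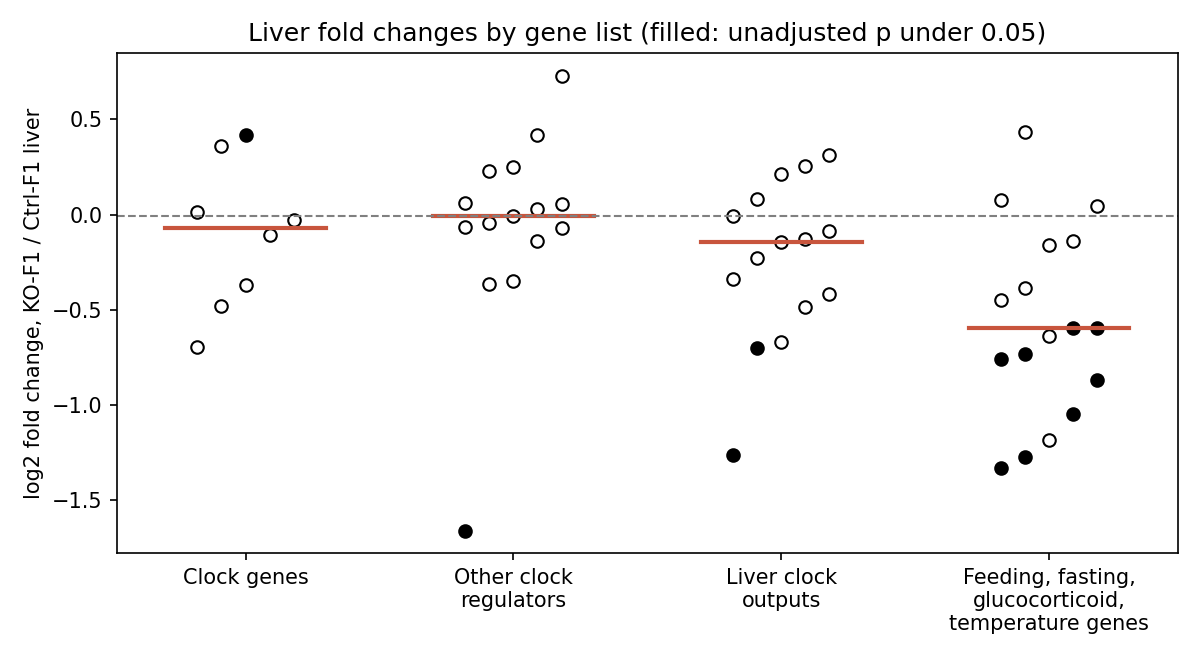
log2 fold change of KO-F1 over Ctrl-F1 liver for each tested gene of 4 lists, filled where the unadjusted p is under 0.05, with a red line at the median of each list and a dashed line at the median of all 11505 genes tested, -0.006. The medians are -0.07 for the 8 tested clock genes, -0.005 for other clock regulators, -0.14 for liver clock outputs and -0.60 for the genes of feeding, fasting, glucocorticoids and temperature. The lists were chosen with earlier results of these data known.

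Genes whose values ran closest to those of Dbp and Arntl over the 4 livers were sought among the 11505 genes tested, by the mean absolute difference of log2(CPM + 0.5) after centring each gene on its mean. The 5 nearest to Dbp were Snrpg, 1110001A16Rik, Fdxr, Ube2h and Crebzf, at differences of 0.00656 to 0.0187. The 5 nearest to Arntl were Pde12, Rab11fip3, Prune, Tubgcp5 and Chtf8, at differences of 0.0110 to 0.0242. None of these 10 is a clock gene, and with 4 livers many genes share any given order.

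Sperm RNA held clock transcripts in another proportion, and far fewer reads of them. Over the 10 genes together there were 163 and 194 counts in the Ctrl-F1 libraries, 563 and 483 in KO-F1 and 1096 and 954 in KO-F2 spermatozoa, against 3164 to 4156 in the livers. The sperm libraries were smaller, and scaled to library totals the gap was narrower. The genes then summed to 70.2 and 163 CPM in Ctrl-F1, 168 and 206 CPM in KO-F1 and 96.8 and 116 CPM in KO-F2 spermatozoa. The livers held 279 to 327 CPM. Dbp and Nr1d1 again had the highest means per kilobase of exon, at 24.7 and 13.5 CPM per kb in Ctrl-F1, 50.4 and 10.5 CPM per kb in KO-F1 and 15.0 and 10.3 CPM per kb in KO-F2 spermatozoa, and only in KO-F1 did the pair not overlap. Nr1d1 was separate from Cry2 in KO-F2 alone, and it overlapped Cry2 in Ctrl-F1 and KO-F1. In Ctrl-F1 replicate 1 Nr1d1 stood at 1.56 CPM per kb, below Cry1 at 7.43 and Cry2 at 2.58 CPM per kb. Reads came from cDNA amplified by PCR, so counting intervals do not cover the amplification. Mature sperm do not transcribe, and RNA of other cells in a preparation is counted with theirs; a smaller share of cells and less RNA per cell cannot be told apart in these bulk samples.

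**Figure D5:**
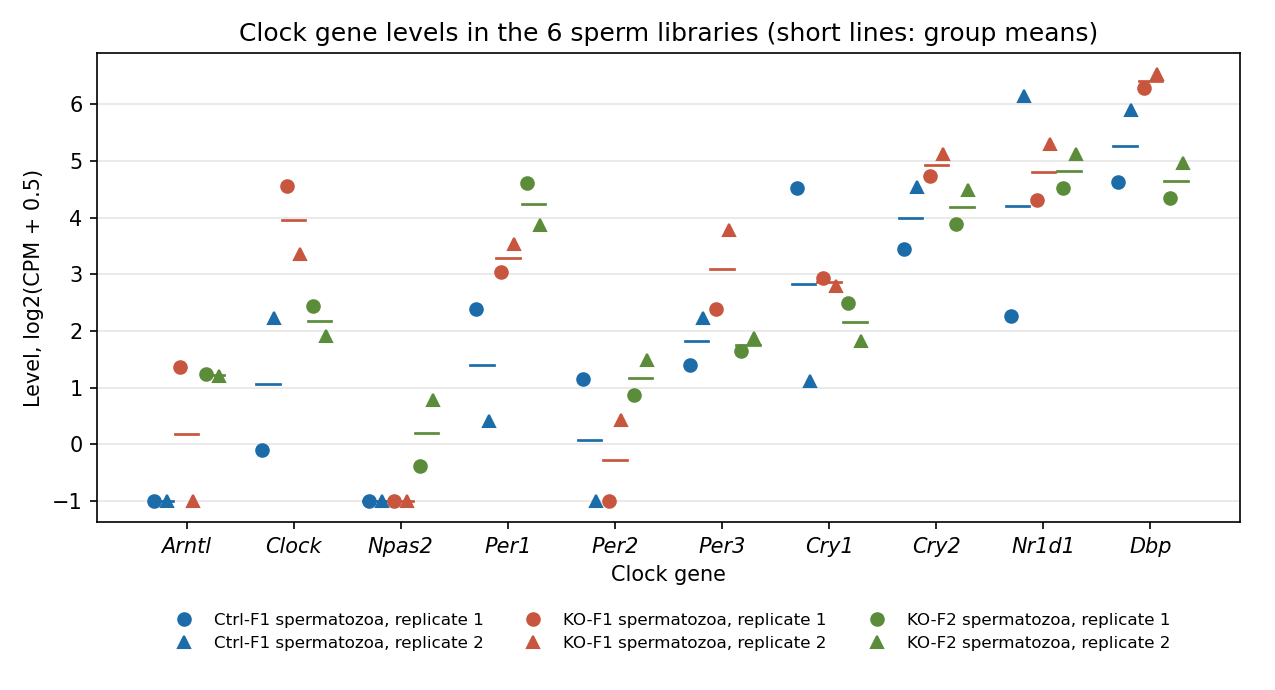
Level of each clock gene in the 6 sperm libraries as log2(CPM + 0.5), with circles for replicate 1, triangles for replicate 2, blue for Ctrl-F1, red for KO-F1, green for KO-F2 and short lines for the mean of the 2 replicates; points at -1 are libraries with 0 counts. The Ctrl-F1 replicates lie far apart for Nr1d1 and Cry1, and Dbp is highest in both KO-F1 libraries.

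Of the activators, Arntl had 0 counts in both Ctrl-F1 libraries, 7 and 0 in KO-F1 and 21 and 15 in KO-F2 spermatozoa. A count of 0 in the Ctrl-F1 libraries allows a level of up to 1.29 and 2.52 CPM, and the KO-F2 levels, 1.85 and 1.82 CPM, lie between these limits. Npas2 had 0 counts in all 4 F1 libraries and 3 and 10 in KO-F2. Clock had 1 and 5 counts in the Ctrl-F1 libraries, 77 and 23 in KO-F1 and 56 and 27 in KO-F2 spermatozoa, or 0.431 and 4.20, 22.9 and 9.81, and 4.95 and 3.27 CPM.

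Of the repressors, Per1 was at 4.74 and 0.840 CPM in Ctrl-F1, 7.74 and 11.1 CPM in KO-F1 and 24.0 and 14.1 CPM in KO-F2, with 11 and 1 counts behind the Ctrl-F1 values. The KO-F2 libraries were above all others. Per2 had at most 4 counts in the F1 libraries, and 15 and 19 in KO-F2. Per3 was at 2.15 and 4.20 CPM in Ctrl-F1, 4.76 and 13.2 CPM in KO-F1 and 2.65 and 3.15 CPM in KO-F2. Cry2 was at 10.3 and 22.7, 26.2 and 34.1, and 14.2 and 22.0 CPM in the same order.

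The Ctrl-F1 libraries disagreed on the remaining genes. Cry1 had 52 counts in replicate 1 and 2 in replicate 2, or 22.4 and 1.68 CPM, against 7.14 and 6.40 CPM in KO-F1 and 5.12 and 3.03 CPM in KO-F2. Nr1d1 had 10 and 84 counts, or 4.31 and 70.5 CPM, against 19.4 and 38.8 CPM in KO-F1 and 22.6 and 34.3 CPM in KO-F2. The log2 ratio of Nr1d1 between the Ctrl-F1 replicates was 3.97, with a counting interval from 3.08 to 5.14, above the 90th percentile of 3.59 over all genes. Epididymal cell markers, which summed to 19205 and 6999 CPM, and leukocyte markers, which summed to 51.7 and 352 CPM, also differed between these libraries, and their part was not tested.

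Dbp had 56 and 70 counts in the Ctrl-F1 libraries, 260 and 215 in KO-F1 and 224 and 252 in KO-F2 spermatozoa, or 24.1 and 58.8, 77.4 and 91.7, and 19.8 and 30.6 CPM. KO-F1 lay above both other groups. Sphk2, the gene that overlaps Dbp on the opposite strand, had 48 and 62, 298 and 221, and 304 and 253 counts in the same libraries. The counts of the pair were thus close in every sperm library, whereas the livers held between 1250 and 1680 counts of Dbp and between 237 and 303 of Sphk2. Whether reads of the overlap were assigned to Dbp was not tested.

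None of the clock genes was called in KO-F1 against Ctrl-F1 spermatozoa. edgeR tested 7 of the 10 and called 0 of 10785 genes (0%), and DESeq2, which gave 3 of the 7 an adjusted p, called 390 of 5000 genes (7.8%). No clock gene reached an unadjusted p under 0.05, against 19.5% of all genes tested. In 5 of the 7, Clock, Per1, Per3, Cry2 and Dbp, both KO-F1 libraries were above both Ctrl-F1 libraries, against 54% of all genes with separate groups in either direction. The log2 fold change was 1.04 for Dbp (standard error 0.54, adjusted p = 0.339 by edgeR) and 2.90 for Clock (standard error 1.31, adjusted p = 0.271). The 95% intervals were wide, from -0.20 to 2.27 for Dbp and from -0.11 to 5.91 for Clock. Sperm markers summed to 129608 and 139242 CPM in Ctrl-F1 and 46269 and 35688 CPM in KO-F1 spermatozoa, and the part of this in the clock values was not tested.

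Against the same Ctrl-F1 libraries, KO-F2 spermatozoa also showed no called clock gene. edgeR tested 7 of the 10 and called 0 of 13149 genes (0%), and DESeq2 called 277 of 12963 genes (2.14%), none of them a clock gene. Per1 alone passed an unadjusted p under 0.05, against 14.9% of all genes. In the edgeR fit its log2 fold change was 2.64 (standard error 0.88, adjusted p = 0.243). It was also the only tested clock gene with separate groups, against 48% of all genes. The log2 fold change was 1.01 for Clock and -0.68 for Dbp (standard errors 1.18 and 0.54, adjusted p = 0.764 and 0.626). Leukocyte markers summed to 51.7 and 352 CPM in Ctrl-F1 and 2119 and 3398 CPM in KO-F2 spermatozoa, and epididymal markers to 19205 and 6999 CPM against 2923 and 1322 CPM. Their part in these values was not tested, and the labels name a sequencing run for KO-F2 only, so run and group cannot be told apart.

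When spermatozoa of the F2 and F1 generations from Scml2-KO fathers were set against each other, Dbp and Clock were the clock genes with the lowest p. edgeR tested 8 of the 10 and called 312 of 13517 genes (2.31%) but no clock gene. At an unadjusted p under 0.05 there were 2 lower clock genes, against 36.8% of all genes in either direction: Dbp, 2.99-fold lower in KO-F2 (log2 fold change -1.58, standard error 0.36, adjusted p = 0.0259 by edgeR), and Clock, 3.48-fold lower (log2 fold change -1.80, standard error 0.67, adjusted p = 0.0987). DESeq2, which called 2058 of 15135 genes (13.6%), called Dbp (adjusted p = 0.00229). Sphk2, which overlaps Dbp on the opposite strand, had 298 and 221 counts in KO-F1 and 304 and 253 in KO-F2 libraries. The library totals were 2778171 and 2085285 counts in KO-F1 and 11462105 and 8384266 in KO-F2. Relative to these totals Sphk2 was also lower in KO-F2, and its part in the Dbp value was not tested. Groups were separate for 6 of the 8, with Dbp, Clock, Per3, Cry1 and Cry2 lower and Per1 higher in KO-F2, against 66.2% of all genes. Leukocyte markers summed to 82.2 and 162 CPM in KO-F1 and 2119 and 3398 CPM in KO-F2 spermatozoa, epididymal markers to 7732 and 10370 CPM against 2923 and 1322 CPM, and sperm markers to 46269 and 35688 CPM against 137993 and 130830 CPM. Their part in these values was not tested, and run and generation cannot be told apart here either.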

How the data were processed

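The authors deposited raw read counts by gene symbol for the 10 libraries used. Per the labels and methods, the authors aligned single-end reads to GRCm38 (mm10) with HISAT2 2.1.0 and counted uniquely aligned reads with featureCounts; annotation and strand setting are not given in the sources used here. Liver libraries were stranded and made from mRNA, and sperm libraries from PCR-amplified cDNA, so counting intervals cover counting error only. Each file listed 2 symbols more than once; these 4 lines were left out and 23416 genes kept.

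Each pair of groups was fitted alone with edgeR 4.0.16 in R 4.3.3 (TMM, filterByExpr with a minimum count of 10, quasi-likelihood test, Benjamini-Hochberg adjustment over all genes tested), and intervals used the total degrees of freedom of that fit. DESeq2 1.42.0 with default settings, its size factors in edgeR, edgeR's bias-adjusted quasi-likelihood test, other filters and thresholds, a block, all sperm groups in 1 model and leaving out each replicate were alternatives. Scripts were checked on simulated counts. Replicates were separate biological samples.

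The clock genes and the lists of other regulators, outputs and systemic cues were chosen with earlier results of these data known. Named were all 10 clock genes, at most 10 genes of the other lists per comparison by smallest unadjusted p, and the 5 nearest to Dbp and to Arntl; other named genes were picked with their values known. Ciart and Noct were matched through their older symbols. Exon lengths are unions of curated RefSeq transcripts, whose overlap with the annotation used for counting was not checked. ChIP-seq and embryo samples were not analysed here.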

Additional observations from a re-analysis of the deposited data

Results flagged for a closer look

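Clock was the only clock gene whose KO-F1 libraries lay on opposite sides of Ctrl-F1 in the 2 tissues. Both KO-F1 livers were below both Ctrl-F1 livers, and both KO-F1 sperm libraries were above both Ctrl-F1 sperm libraries, where Clock had only 1 and 5 counts. In an edgeR fit of the 8 F1 libraries, the log2 fold change in spermatozoa minus that in liver was 3.31, with an unadjusted p = 0.0168 and an adjusted p = 0.253 over all genes tested, so the difference did not pass the correction. The fit had no term for the animal and held both tissues in 1 model. Their replicate spread differed, with a median size of the log2 ratio of 0.22 in Ctrl-F1 liver and 0.96 in Ctrl-F1 spermatozoa.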

How the results depend on the processing

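No clock gene was called in KO-F1 liver, KO-F1 spermatozoa or KO-F2 against Ctrl-F1 spermatozoa under any alternative run, including each replicate left out in turn. Between KO-F2 and KO-F1 spermatozoa 1 clock gene, Dbp, was called with DESeq2, 1 without a filter, 1 with at least 10 counts in every library and 1 at an adjusted p under 0.05 without a fold threshold; leaving out replicates gave 0 to 1, the 1 being Clock without KO-F1 replicate 2. Counting at an unadjusted p under 0.05, the other regulators, liver outputs and systemic cue genes held 1 of 15, 2 of 15 and 8 of 17 tested genes in liver (9.41% of all genes), 2 of 12, 2 of 8 and 3 of 11 in KO-F1 spermatozoa (19.5%), 1 of 13, 2 of 9 and 2 of 13 in KO-F2 against Ctrl-F1 (14.9%) and 4 of 13, 4 of 9 and 6 of 13 in KO-F2 against KO-F1 (36.8%). The liver contrast moved from -0.54 to -0.32 with the wider gene set and to -0.23 with other clock genes. The cause of these moves was not tested.

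Reversals of direction, none of them of a called gene, came mostly from leaving out replicates. The log2 fold changes then ran, in liver, from -0.17 to 0.18 for Per2 and -0.16 to 0.095 for Per3; in KO-F1 spermatozoa, from -1.75 to 1.98 for Cry1 and -1.27 to 2.71 for Nr1d1; in KO-F2 against Ctrl-F1, from -0.47 to 0.46 for Per3, -2.40 to 1.35 for Cry1, -0.27 to 0.84 for Cry2, -1.25 to 2.75 for Nr1d1 and -1.16 to 0.092 for Dbp; and in KO-F2 against KO-F1, from -0.031 to 6.77 for Arntl and -0.34 to 0.70 for Nr1d1. The bias-adjusted test gave 5.49e-04 for Per3 in KO-F2 against Ctrl-F1, and 1 model over all sperm groups gave -0.025 for Nr1d1 in KO-F2 against KO-F1.

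Same-numbered samples came from different animals, and the correlations of their deviations were -0.13 in liver and -0.009, 0.14 and 0.06 in the sperm comparisons. With the replicate block 0 clock genes were called in each comparison, and over all genes 2, 0, 362 and 819 were called against 0, 0, 0 and 312 without it; Nr1d1 turned to 0.51 and 0.49 against Ctrl-F1 in KO-F1 and KO-F2 spermatozoa. A crossed block in liver, added after seeing the data, called 0 genes.

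Limits: 2 animals per group, Arntl and Npas2 close to the detection limit in liver, and Ctrl-F1 sperm libraries in which each clock gene had under 100 counts. The time of collection is not given and cannot be told apart from the animal.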

Other observations

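Of the clock outputs, 9 of 15 had enough counts to be tested in the spermatozoa of both KO generations, and some differed. Usp2, a deubiquitinase gene, was at 186 and 357 CPM in Ctrl-F1, 85.1 and 146 CPM in KO-F1 and 410 and 540 CPM in KO-F2 spermatozoa. Lpin1, which is made in the testis as well as in liver, was at 234 and 365, 103 and 127, and 466 and 575 CPM. Between KO-F2 and KO-F1, Lpin1 was called as higher (log2 fold change 2.35, standard error 0.33, adjusted p = 0.00965 by edgeR) and Usp2 fell short of the threshold in edgeR (2.20, standard error 0.39, adjusted p = 0.0137) but was called by DESeq2 (adjusted p = 5.13e-07). The PAR bZIP gene Hlf moved the other way, as Dbp did, at 44.1 and 47.3 CPM in KO-F1 and 6.27 and 7.16 CPM in KO-F2 (log2 fold change -2.59, standard error 0.40, adjusted p = 0.0106 by edgeR), and was called as lower by DESeq2 (adjusted p = 1.40e-05). In Ctrl-F1 spermatozoa Hlf was at 0.862 and 47.9 CPM, so those replicates disagreed. Avpr1a, a vasopressin receptor gene, was at 2.68 and 12.4 CPM in KO-F1 and at 0.265 and 0.243 CPM in KO-F2, where 3 and 2 counts lie at or under the detection limit, and was called as lower by DESeq2 (adjusted p = 0.00613) but not by edgeR (adjusted p = 0.0378). In Ctrl-F1 it was at 10.8 and 18.5 CPM. Against Ctrl-F1, too, Avpr1a was called as lower in KO-F2 by DESeq2 (adjusted p = 6.775e-05) but not by edgeR (adjusted p = 0.149). Sperm markers were at 46269 and 35688 CPM in KO-F1 and 137993 and 130830 CPM in KO-F2 spermatozoa, and their part in these values was not tested.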
